A study of Mus musculus with 11 samples.

Results

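The genes described here encode 7 amino acid transporters that activated T cells are known to use, namely Slc7a5, Slc3a2, Slc1a5, Slc38a1, Slc38a2, Slc7a1 and Slc7a6. They were taken by their symbols from the deposited table, and all 7 are among its 14604 genes. Each also passed the filter on low values, a mean of at least 0.5 on the deposited scale, which kept 13897 genes. RNA of regulatory T cells (Tregs) was measured in 11 libraries, 6 of spleen Tregs and 5 of tumor-infiltrating Tregs (TI-Tregs). The Tregs were sorted from spleens and tumors of mice implanted with MC38, a mouse colon adenocarcinoma line. The wild-type group carries the CD177flox/flox genotype without a Cre and gave 3 spleen and 3 tumor libraries. The knockout group carries CD177flox/flox/FOXP3-CreYFP, in which the Foxp3 promoter drives the Cre, so that Cd177 is lost from Foxp3-expressing cells, and it gave 3 spleen and 2 tumor libraries. All mice therefore carry the floxed allele and an MC38 graft. For MC38 the methods name C57BL/6 males of 6 to 8 weeks at implantation, without tying this to the floxed mice. Spleens were taken from the tumor-bearing mice themselves, so spleen and tumor libraries may share animals, but neither the labels nor the methods say which do, and the tests treat all libraries as independent. Whether libraries of a group came from separate animals is not given either, so p-values measure the spread between these libraries only. Cd177 has no row in the table, so the genotype labels were not checked on it.

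T cells that leave rest build protein quickly and take up amino acids through carriers in the plasma membrane. Slc3a2 encodes the CD98 heavy chain, a glycoprotein that does not itself carry amino acids but brings light chains to the cell surface. Slc7a5 encodes LAT1, the light chain that imports leucine and other large neutral amino acids in exchange for glutamine, and Slc7a6 encodes y+LAT2, another light chain of the same heavy chain, which exchanges cationic for neutral amino acids. Slc1a5 encodes ASCT2, an exchanger of glutamine and other small neutral amino acids. Slc38a1 and Slc38a2 encode SNAT1 and SNAT2, which bring glutamine, alanine and related amino acids in together with sodium. Slc7a1 encodes CAT1, a carrier of arginine and lysine. Leucine and arginine inside the cell are sensed upstream of mTORC1, and shortage of amino acids is sensed through the kinase GCN2 and the transcription factor ATF4.

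In GENCODE release M21 on GRCm38, Slc7a5 lies on the minus strand at chr8:121881150-121907694 and Slc7a6 on the plus strand at chr8:106168857-106198706. Slc3a2 lies on the minus strand at chr19:8706882-8723369, and Slc1a5 on the plus strand at chr7:16781340-16798274. The 2 SNAT genes are neighbors on the minus strand of chromosome 15, Slc38a1 at chr15:96571418-96642913 and Slc38a2 at chr15:96687392-96699730. Slc7a1 lies on the minus strand at chr5:148327410-148399904. No exon of these 7 genes overlaps an exon of another gene on either strand. The share of a gene's 31-base transcript windows that also occur in another gene was 0% for Slc7a5 and Slc7a6, 0.024% for Slc1a5, 0.034% for Slc38a2 and 0.85% for Slc7a1. It was 4.15% for Slc3a2 and 6.94% for Slc38a1, so a small part of the reads of these 2 genes could have been split with other genes.

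The RefSeq promoter table on GRCm38.p6 held 4 of the 7 genes, 3 that were higher in TI-Tregs as deposited (Slc3a2, Slc38a2 and Slc7a1) and 1 that was lower (Slc7a6). The 60 bases before the most upstream listed start of each are printed 5′ to 3′ on the strand of the gene, so that the starts of genes that differed in direction stand side by side. The Slc3a2 window lies inside the span that GENCODE gives the gene, since another transcript starts upstream of it. Capitals mark GGGCGG, the core of the GC box bound by Sp1-type factors, and TATAA, the core of a TATA box, on either strand. No base belongs to both motifs in these windows.
Slc3a2 at chr19:8713898-8713957: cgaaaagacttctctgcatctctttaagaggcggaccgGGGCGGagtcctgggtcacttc
Slc38a2 at chr15:96699729-96699788: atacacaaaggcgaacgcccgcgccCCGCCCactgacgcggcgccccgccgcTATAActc
Slc7a1 at chr5:148399905-148399964: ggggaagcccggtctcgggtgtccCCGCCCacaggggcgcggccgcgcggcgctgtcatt
Slc7a6 at chr8:106168794-106168853: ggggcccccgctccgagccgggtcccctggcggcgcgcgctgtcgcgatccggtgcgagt
GGGCGG or its reverse complement was present once in Slc3a2, once in Slc38a2 and once in Slc7a1, and it was not found in Slc7a6. Among all 32851 promoters in the table, 18.6% held it in a window of this length. TATAA occurred once, in Slc38a2, and in 7.25% of all promoters. In Slc38a2 only 3 bases lay between these letters and the end of the window at the listed start. Whether they act as a TATA box was not tested. The letters TGATGNAA, a core of the C/EBP-ATF element of amino acid response genes, and CACGTG, the E-box bound by MYC and MAX, were found in none of the 4 windows on either strand, against 0.804% and 2.04% of all promoters. The GC content was 56.7% in the Slc3a2 window, 70% in Slc38a2, 78.3% in Slc7a1 and 81.7% in Slc7a6, with a median of 55% over all promoters. These are matches of letters in one window only.

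The deposited values are log2(n + 1) of estimated counts n per gene, and no source used here says how n was scaled between libraries. The values of n summed to between 712832 and 844331 in spleen libraries and to between 1103159 and 1304548 in tumor libraries. The methods give an approximate read depth per library, well above these sums, but not the reads of each library. One gene, Gm12896, took 31.4% to 42.4% of these sums. The tumor libraries also carried RNA typical of other cells. All 17 listed myeloid markers were higher in them, with the log2 of their summed n at 8.32 to 9.28 in spleen and 13.8 to 14.4 in tumor, and the 2 with the highest tumor mean were Lyz2 (12.3) and Apoe (11.1). Of 6 listed fibroblast markers 5 were higher, with sums of 2.34 to 2.64 in spleen and 9.21 to 10.4 in tumor, led by Col3a1 and Sparc, and the spleen mean of 2 of the 6 was under 0.5. Of 10 CD8 T and NK markers 6 were higher and 1 lower (5.55 to 6.57 against 8.06 to 9.42), led in tumor by Gzmb and Nkg7. Of 20 T-cell lineage genes 17 were lower and none higher, with a median sum of 12.4 in spleen and 11.4 in tumor. Of 7 genes that mark the sort or the Treg lineage 2 were higher and 4 lower. Foxp3, named after its values were seen, stood at 6.35 ± 0.30 (SD) over the 6 spleen libraries and 5.50 ± 0.55 (SD) over the 5 tumor libraries, so the defining Treg gene was present in both tissues. Of 7 B cell markers, led in tumor by Ighm and Cd22, 4 were lower and none higher. Of 9 erythroid and platelet markers 8 were lower, and Pf4 was the 1 that was higher. Of 4 tumor epithelial markers tested 1 was higher, Cdh1, and 2 were lower, with sums of 3.43 to 4.21 in spleen and 4.25 to 5.02 in tumor. The part of these cells in the values below was not tested, and in such samples a higher level per Treg, a changed number of Tregs and RNA of other cells cannot be told apart.

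In TI-Treg samples, 4 of the 7 transporter genes were higher than in spleen Tregs (Slc3a2, Slc7a5, Slc38a2 and Slc7a1) and 3 were lower (Slc1a5, Slc7a6 and Slc38a1), all past an adjusted p of 0.05 (limma with Benjamini-Hochberg adjustment over 13897 genes). Tissue set most genes apart in these libraries. Of all genes tested 78.9% passed the same threshold, 43.1% higher and 35.9% lower, so the count of 7 of 7 is not read as a result about the transporters. The libraries of the tissues did not overlap for 6 of the 7 genes, against 63.5% of all genes tested. Bonferroni adjustment in limma left 3 of the 7 (Slc3a2, Slc7a5 and Slc38a2) and 36.3% of all genes, and a log2 difference of at least 1 left 2 (Slc3a2 and Slc7a5) and 32.8% of all genes. The differences of the 7 genes had a median of 0.45 on the log2 scale, beside a median of 0.08 over all genes.

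**Figure D1:**
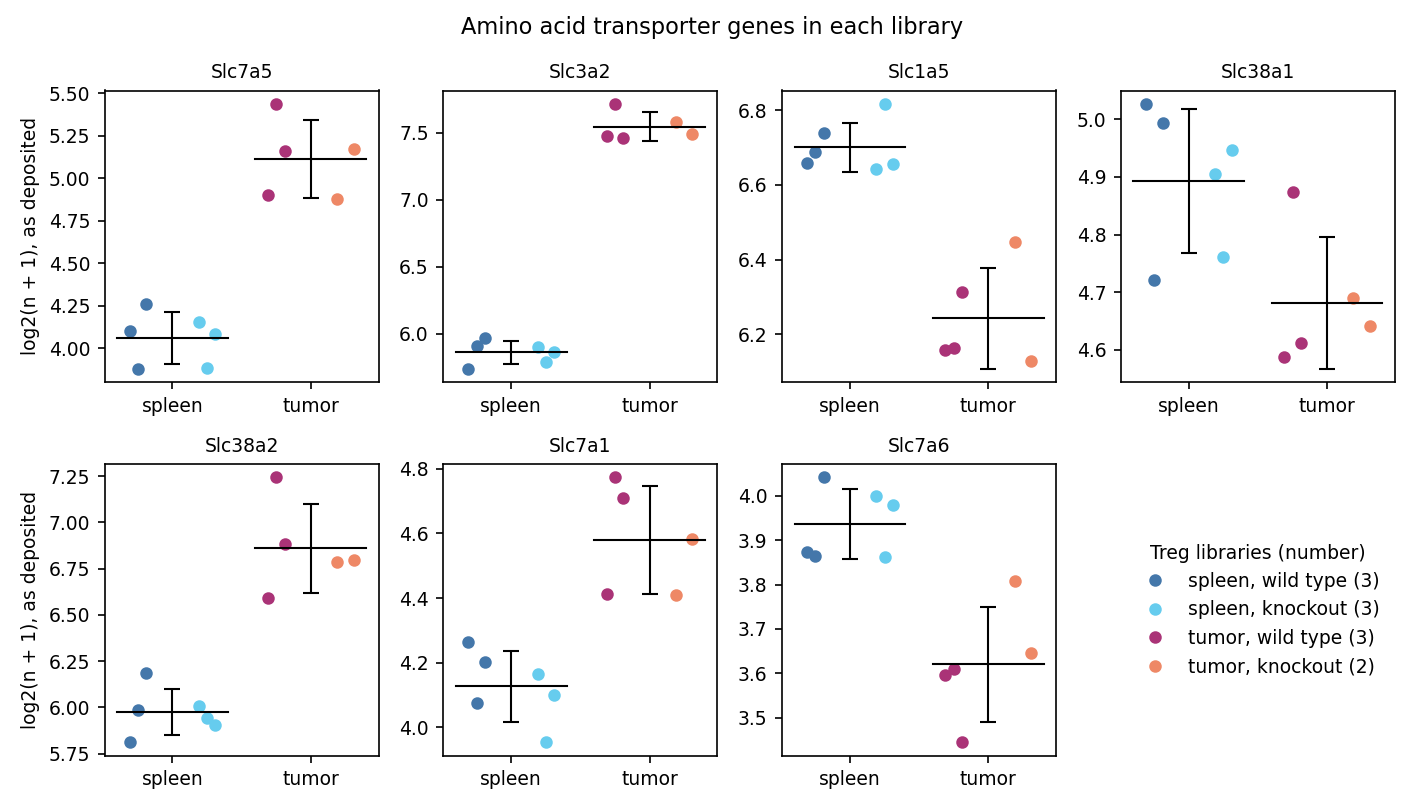
Deposited log2(n + 1) of each transporter gene (vertical axes, each with its own range) in the 6 spleen and 5 tumor libraries, with points colored by tissue and genotype, lines at the tissue means and bars of 1 SD. The tumor points lie above all spleen points for Slc7a5, Slc3a2, Slc38a2 and Slc7a1, below them for Slc1a5 and Slc7a6, and overlap them for Slc38a1.

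Slc3a2, the heavy chain, showed the widest gap of the 7. Its spleen libraries had a lowest value of 5.74, a median of 5.88 and a highest value of 5.96. The tumor libraries read 7.48, 7.72 and 7.46 in wild-type mice and 7.58 and 7.50 in knockout mice. Every tumor library stood above every spleen library, and the 5 tumor values lay within a narrow band. The mean rose from 5.86 ± 0.084 (SD, n = 6) to 7.55 ± 0.11 (SD, n = 5), a difference of 1.69 (standard error 0.063, limma adjusted p = 1.37e-10). On the scale of n + 1 this is 3.22-fold higher (95% interval 2.93 to 3.54). By size of this difference Slc3a2 stood at percentile 89.4 of all genes tested, with 1479 genes above it.

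Slc7a5, the LAT1 light chain that imports leucine, also rose, by less than its heavy chain. Its spleen libraries ranged from 3.88 to 4.26 with a median of 4.09. The tumor libraries read 4.90, 5.44 and 5.16 in wild-type mice and 4.88 and 5.17 in knockout mice, all above the spleen range. The mean went from 4.06 ± 0.15 (SD, n = 6) to 5.11 ± 0.23 (SD, n = 5), a difference of 1.05 (standard error 0.11, limma adjusted p = 1.41e-06), or 2.07-fold higher (95% interval 1.76 to 2.44). A larger difference was found for 2676 genes.

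Slc7a6, the y+LAT2 light chain, moved the opposite way from Slc7a5 as deposited. Its spleen libraries ranged from 3.86 to 4.04 with a median of 3.93. In tumor the values were 3.60, 3.61 and 3.44 in wild-type mice and 3.81 and 3.65 in knockout mice. All 5 lay below the lowest spleen library, the first knockout library by a small margin. The mean fell from 3.94 ± 0.079 (SD, n = 6) to 3.62 ± 0.13 (SD, n = 5), a difference of -0.32 (standard error 0.079, limma adjusted p = 0.0024), or 1.25-fold lower (95% interval 1.11 to 1.40). With the libraries centred on T-cell lineage genes the difference turned to 0.43 (adjusted p = 0.049).

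Slc38a2, the sodium-coupled carrier SNAT2, was higher in TI-Treg samples. Spleen libraries ranged from 5.81 to 6.18 with a median of 5.96. Tumor libraries of wild-type mice read 6.59, 7.24 and 6.88, and those of knockout mice 6.79 and 6.80. The tissues did not overlap, and the second wild-type tumor library was the highest of all. The mean rose from 5.97 ± 0.12 (SD, n = 6) to 6.86 ± 0.24 (SD, n = 5), a difference of 0.89 (standard error 0.10, limma adjusted p = 4.07e-06), or 1.85-fold higher (95% interval 1.58 to 2.16). With library totals set equal the difference was 0.27 and no longer passed (adjusted p = 0.056).

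Slc38a1, which encodes SNAT1 and lies next to Slc38a2 on chromosome 15, gave the smallest difference of the 7. Spleen libraries ranged from 4.72 to 5.03 with a median of 4.93. The tumor libraries read 4.59, 4.87 and 4.61 in wild-type mice and 4.69 and 4.64 in knockout mice. The tissues overlapped, since the second wild-type tumor library lay within the spleen range. The mean was 4.89 ± 0.12 (SD) over the 6 spleen libraries and 4.68 ± 0.11 (SD) over the 5 tumor libraries, a difference of -0.21 (standard error 0.078, limma adjusted p = 0.024), or 1.16-fold lower (95% interval 1.03 to 1.30). The call was lost when the first or the third wild-type library of spleen (-0.18 and -0.19, adjusted p = 0.053 and 0.052) or of tumor (-0.19 and -0.19, adjusted p = 0.054 and 0.055) was left out. Centred on T-cell lineage genes, the difference turned to 0.54 (adjusted p = 0.021).

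Slc1a5, the glutamine exchanger ASCT2, was the most reduced of the 7 as deposited. Spleen libraries ranged from 6.64 to 6.82 with a median of 6.67. Values in the tumor libraries were 6.16, 6.16 and 6.31 in wild-type mice and 6.45 and 6.13 in knockout mice, each below every spleen library. The mean fell from 6.70 ± 0.067 (SD, n = 6) to 6.24 ± 0.14 (SD, n = 5), a difference of -0.46 (standard error 0.067, limma adjusted p = 3.22e-05), or 1.37-fold lower (95% interval 1.24 to 1.52). Centred on T-cell lineage genes, the difference was 0.29 and did not pass (adjusted p = 0.13).

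Slc7a1, the arginine and lysine carrier CAT1, was slightly higher in TI-Treg samples. Spleen libraries ranged from 3.95 to 4.26 with a median of 4.13. In tumor the libraries stood at 4.41, 4.77 and 4.71 in wild-type mice and 4.41 and 4.58 in knockout mice, above all spleen libraries. The mean rose from 4.13 ± 0.11 (SD, n = 6) to 4.58 ± 0.17 (SD, n = 5), a difference of 0.45 (standard error 0.087, limma adjusted p = 0.00037), or 1.37-fold higher (95% interval 1.20 to 1.56). With library totals set equal the difference was -0.14 and did not pass (adjusted p = 0.21).

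An exact two-sided permutation test over the libraries gave p = 0.0043 for each of the 6 genes without overlap, the smallest that 6 against 5 libraries allow, and p = 0.026 for Slc38a1. The second wild-type tumor library held the highest value of Slc3a2, Slc7a5, Slc38a2, Slc7a1 and, among tumor libraries, Slc38a1. The same library had the highest summed myeloid markers (14.4, with 14.3 in the next tumor library) and fibroblast markers (10.4, with 10.1 in the next). It also had the lowest total n (1103159) and Gm12896 share (31.4%) of the tumor libraries, and the highest median log2 value (3.75). The part of each in these values was not tested. Without it the differences were 1.64 for Slc3a2, 0.97 for Slc7a5, 0.79 for Slc38a2, 0.40 for Slc7a1 and -0.26 for Slc38a1, all still past the threshold.

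The direction of 4 of the 7 genes depended on how libraries were put on a common scale, while Slc3a2, Slc7a5 and Slc38a2 were higher in TI-Treg samples under each of the 5 scalings tried. The median difference over all genes was 0.08 as deposited, -0.16 after quantile normalization, -0.14 after median centring, -0.44 with equal library totals and 0.83 when libraries were centred on T-cell lineage genes. Among called genes 54.5% were higher in tumor as deposited, against 42.1%, 43.7%, 29.6% and 88.5% under these scalings in the same order. Slc3a2 kept a difference between 1.07 (equal totals) and 2.44 (T-cell lineage genes), and Slc7a5 one between 0.45 and 1.80, each past the threshold throughout. Slc1a5 fell by more under quantile normalization (-0.96) and equal totals (-1.08) than as deposited, and so did Slc38a1 (-0.47 and -0.82) and Slc7a6 (-0.54 and -0.90). Quantile normalization and median centring left 4 genes higher and 3 lower, equal totals left 2 higher, 3 lower and 2 not passing, and centring on T-cell lineage genes left 6 higher, none lower and 1 not passing.

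**Figure D2:**
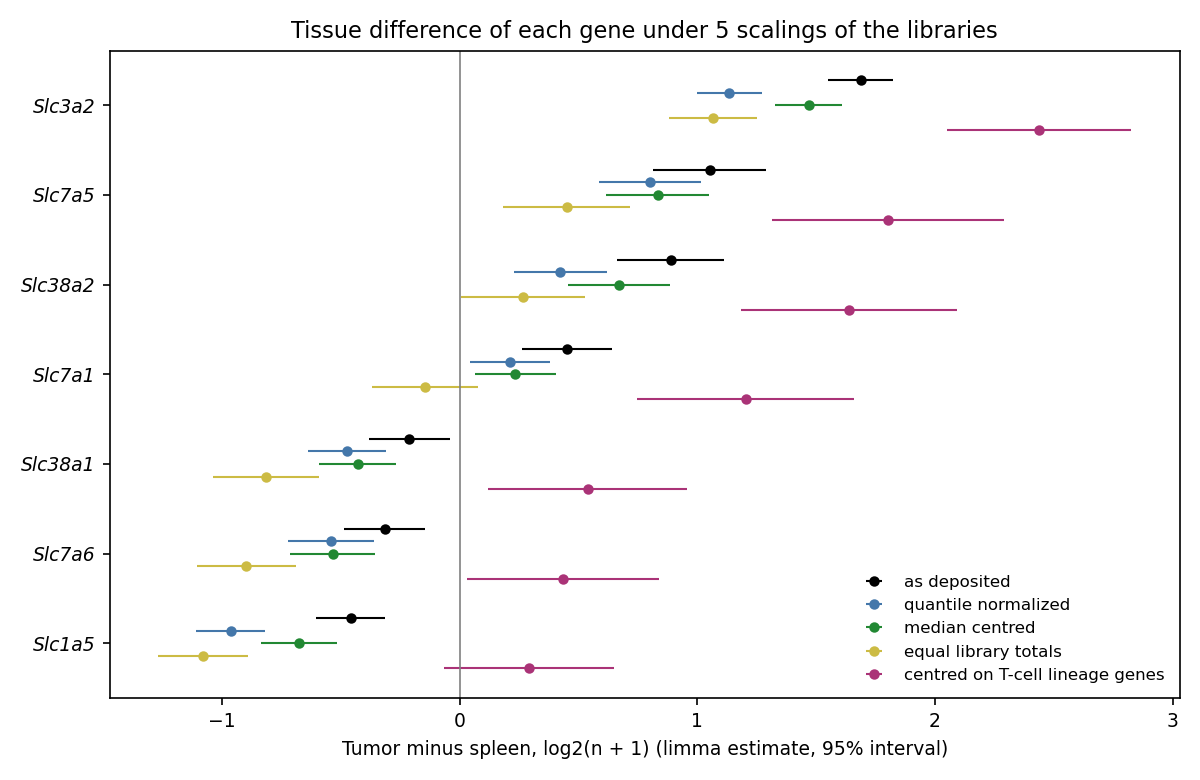
Tumor-minus-spleen difference of each transporter gene on the log2(n + 1) scale (horizontal axis, limma estimate with 95% interval) for the deposited values and 4 other scalings of the 6 spleen and 5 tumor libraries. Slc3a2 and Slc7a5 stay to the right of 0 throughout, while Slc1a5, Slc38a1 and Slc7a6 lie to the left except when libraries are centred on T-cell lineage genes, and Slc7a1 lies left of 0 with equal totals only.

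Set against the median of all genes under the same scaling, each gene kept its side in all 5, a description for which no test was run. Median centring and centring on T-cell lineage genes shift all genes of a library alike, so they cannot change this value. Equal totals nearly do the same, so keeping a side is largely fixed in advance and is not read as stability. Slc3a2 lay 1.29 to 1.61 above that median, Slc7a5 0.89 to 0.97, Slc38a2 0.58 to 0.81 and Slc7a1 0.30 to 0.37. Slc1a5 lay at -0.81 to -0.54 relative to it, Slc7a6 at -0.45 to -0.39 and Slc38a1 at -0.37 to -0.29.

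Pairs of genes read within the same library are little touched by such scaling, because a common factor largely cancels. A difference of log2 values between 2 genes also holds their unequal lengths, so only its change between tissues is read here. For the LAT1 complex, Slc7a5 minus Slc3a2 was -1.80 ± 0.14 (SD) over the 6 spleen libraries and -2.44 ± 0.19 (SD) over the 5 tumor libraries. Values ran from -2.70 to -2.28 in tumor libraries and from -2.03 to -1.64 in spleen libraries, without overlap. The light chain thus stood lower relative to its heavy chain in TI-Treg samples, by a change of -0.64 (exact two-sided permutation test, p = 0.0043, and 0.0043 when adjusted over the 3 pairs compared).

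Between the 2 light chains, Slc7a6 minus Slc7a5 was -0.12 ± 0.093 (SD) over the 6 spleen libraries and -1.49 ± 0.31 (SD) over the 5 tumor libraries. Tumor libraries lay from -1.83 to -1.07 and spleen libraries from -0.23 to -0.014. The change of -1.37 toward Slc7a5 was the widest of the 3 pairs (exact two-sided permutation test, p = 0.0043). For the SNAT pair, Slc38a1 minus Slc38a2 was -1.08 ± 0.18 (SD) over the 6 spleen libraries and -2.18 ± 0.15 (SD) over the 5 tumor libraries. Tumor libraries reached down to -2.37 and spleen libraries lay from -1.26 to -0.78, again without overlap, and the change toward Slc38a2 was -1.10 (exact two-sided permutation test, p = 0.0043). Of all single genes tested 63.5% also separated the tissues fully, and the share of gene pairs that do so was not counted. The lack of overlap and its p-values are therefore not read as particular to these 3 pairs. Whether Tregs or other cells in the tumor samples carried these changes was not tested.

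**Figure D3:**
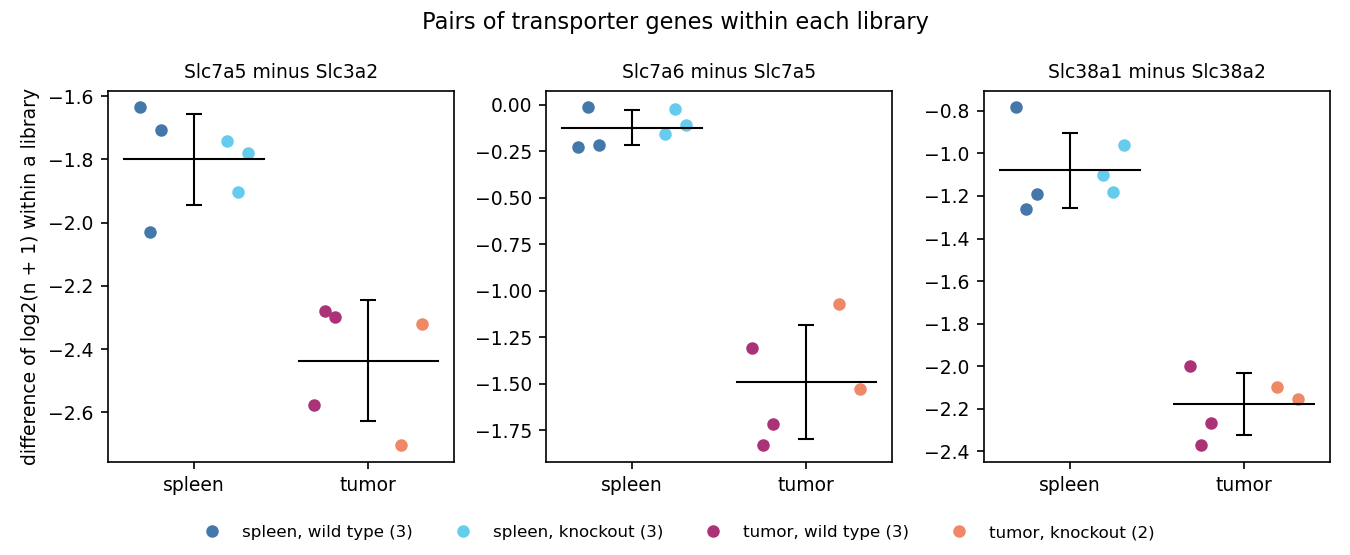
Difference of log2(n + 1) between 2 genes within each library (vertical axes), for the 6 spleen and 5 tumor libraries colored by tissue and genotype, with lines at the tissue means and bars of 1 SD. In all 3 pairs every tumor library lies below every spleen library, with changes of -0.64, -1.37 and -1.10. The share of other gene pairs that separate the tissues in this way was not counted.

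Within each genotype the tissue differences had the same signs. In wild-type mice 6 of the 7 genes passed, 4 higher and 2 lower, against 70.5% of all genes tested, and Slc38a1 did not (-0.22, limma adjusted p = 0.10). In knockout mice 5 of 7 passed, 4 higher and 1 lower, against 65.7% of all genes, and neither Slc38a1 (-0.21, adjusted p = 0.18) nor Slc7a6 (-0.22, adjusted p = 0.12) did. Bonferroni adjustment left Slc3a2 alone of the 7 in each genotype, against 17.6% of all genes in wild-type and 13.4% in knockout mice. A log2 difference of at least 1 left 2 of the 7 in wild-type mice, against 33.4% of all genes, and 1 in knockout mice, against 31.6%. The differences in wild-type and knockout mice, which share no libraries, were 1.68 and 1.69 for Slc3a2, 1.09 and 0.98 for Slc7a5, and 0.91 and 0.84 for Slc38a2. They were 0.45 and 0.43 for Slc7a1, -0.48 and -0.42 for Slc1a5 and -0.38 and -0.22 for Slc7a6.

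No difference by genotype was detected in any of the 7 genes. For the interaction of tissue with genotype 0 of 7 passed (0% of all genes), the estimates ran from -0.10 to 0.16, and their 95% intervals together reached from -0.62 to 0.51. For knockout against wild type in spleen 0 of 7 passed (0% of all genes), with estimates from -0.11 to 0.021 and intervals reaching from -0.38 to 0.31. In tumor 0 of 7 passed as well (0.0072% of all genes, which is 1 gene), with estimates from -0.14 to 0.18 and intervals reaching from -0.53 to 0.44. At an unadjusted p under 0.05 limma called 0 of the 7 in each of these comparisons, and 383, 281 and 634 of all genes. With 3 against 3 or 3 against 2 libraries, differences within each gene's own interval are not excluded, and the outer limits given here belong to the widest intervals. By group mean, Slc3a2, Slc7a5, Slc38a2 and Slc7a1 ran in the same order, wild-type tumor, knockout tumor, wild-type spleen, knockout spleen, with overlap inside each tissue. For Slc7a6 alone the genotypes did not overlap within a tissue, with tumor libraries of wild-type mice at 3.44 to 3.61 and of knockout mice at 3.65 and 3.81 (difference 0.18, limma adjusted p = 0.9997). The share of all genes so separated with 3 against 2 libraries was not counted. This lack of overlap is therefore not read as a difference by genotype.

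Beyond the 7, a list of 38 other amino acid transporter genes had 28 in the table and 25 tested, of which 17 were higher in TI-Treg samples, 6 were lower and 2 did not pass (limma). Their median difference was 0.82. With equal library totals the counts were 11 higher, 7 lower and 7 not passing, where 23.6% of all genes tested were higher and 56.3% lower. Slc7a2, a cationic amino acid carrier known from activated macrophages, went from 1.04 ± 0.072 (SD, n = 6) to 7.02 ± 0.76 (SD, n = 5), a difference of 5.97 (limma adjusted p = 6.23e-10). Slc15a3, an endolysosomal carrier of histidine and dipeptides, differed by 5.38 (from 2.12 ± 0.39 to 7.50 ± 0.22, SD). Slc7a8, the LAT2 light chain that pairs with Slc3a2 as Slc7a5 does, differed by 4.03 (from 1.31 ± 0.28 to 5.35 ± 0.31, SD). Differences on the log2(n + 1) scale understate the change of genes this low in spleen. These 3 rose beside the myeloid markers, whose sums are given above, and the part of myeloid cells in them was not tested.

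Other light chains of Slc3a2 were looked up after their values were seen. Slc7a7, the y+LAT1 chain, stood at 1.74 ± 0.25 (SD, n = 6) and 3.76 ± 0.17 (SD, n = 5), and Slc7a11, the cystine-glutamate exchanger xCT, at 3.89 ± 0.11 (SD, n = 6) and 4.78 ± 0.82 (SD, n = 5). Both passed as higher in tumor (2.02 and 0.89), Slc7a11 not with equal totals (0.30). Of the 5 listed light chains of Slc3a2 that had a row, the y+LAT2 gene Slc7a6 was the one that was lower as deposited. Slc7a10, also on the list, had no row. Exons of Slc7a2 and Slc7a7 overlap a gene on the other strand, and Slc15a3 does as well. Among the falls, Slc38a6, an orphan relative of the SNAT genes, went from 8.73 ± 0.33 (SD, n = 6) to 7.26 ± 0.44 (SD, n = 5), a difference of -1.48. Slc7a14, a lysosomal family member, fell by 1.11 and Slc43a1, the LAT3 carrier of branched-chain amino acids, fell by 0.96, both low in each tissue.

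**Figure D4:**
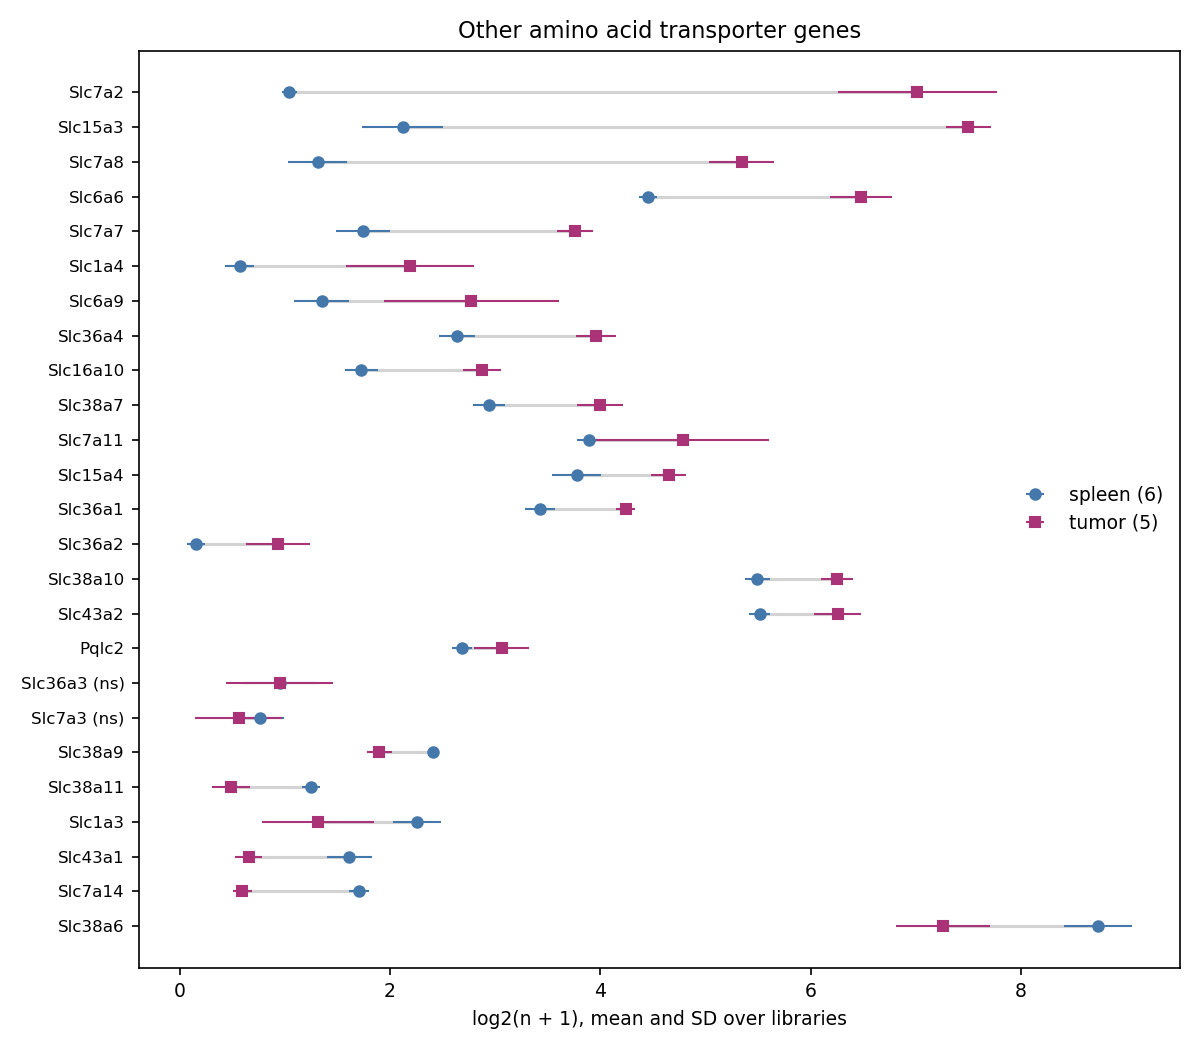
Mean log2(n + 1) with SD (horizontal axis) of the 25 other amino acid transporter genes tested, in 6 spleen (circles) and 5 tumor libraries (squares), ordered by the difference, with ns for genes that did not pass. Slc7a2, Slc15a3 and Slc7a8 lie farthest to the right of their spleen values, and levels are not to be compared between genes.

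Genes of amino acid sensing, of mTORC1 itself and of its targets, listed together, moved both ways. Of 38 tested, 20 were higher, 14 lower and 4 did not pass (limma), with a median of 0.24, and equal totals turned this to 12 higher and 20 lower. Fnip2, a partner of folliculin in activating RagC and RagD, differed by 3.68, Eif4ebp1, the translation repressor that mTORC1 phosphorylates, by 3.50, and Rragc, a Rag GTPase, by 1.61. The Lamtor genes, which encode the 5 subunits of the lysosomal Ragulator scaffold and were named after their values were seen, were all higher as deposited, from 0.79 (Lamtor4) to 1.48 (Lamtor3), though Lamtor4 did not pass with equal totals (0.18). Sesn3 fell by 1.75 and Sesn1 by 1.41, both of the sestrin family that restrains mTORC1, and Rragb, another Rag GTPase, fell by 1.04.

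**Figure D5:**
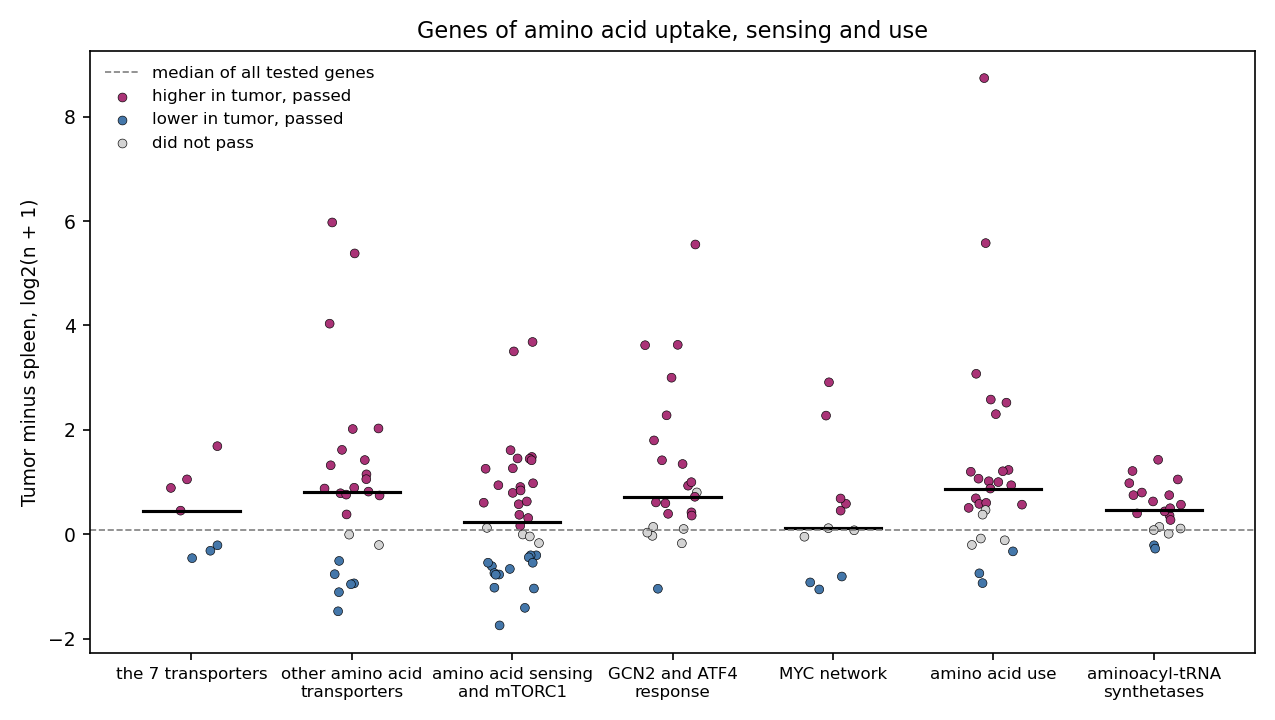
Tumor-minus-spleen difference on the log2(n + 1) scale (vertical axis) of each tested gene in 7 lists of amino acid genes, each point a gene, colored by whether it passed an adjusted p of 0.05 in limma, with bars at the list medians and a dashed line at the median of all genes tested (0.08). The 7 transporters have a median of 0.45, inside the range of the other lists (0.12 to 0.88).

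How these lists split depended on the scaling, as it did for all genes. Of all genes tested 43.1% were higher and 35.9% lower as deposited, and 23.6% and 56.3% with equal totals. The shares were 33.3% and 45.8% after quantile normalization, and 64.3% and 8.38% when centred on T-cell lineage genes. No list was tested against these shares. Centred on T-cell lineage genes, 19 of the other transporters were higher and 1 lower. In the sensing and mTORC1 list 24 were higher and 2 lower. In the GCN2 and ATF4 list 22 were higher, in the MYC network 8 and in the amino acid use list 24, with none lower in the last 3. Quantile normalization gave 12 higher and 5 lower in the GCN2 and ATF4 list, 4 and 4 in the MYC network, 17 and 6 in the amino acid use list and 9 and 3 among the aminoacyl-tRNA synthetases.

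In the response to amino acid shortage through GCN2 and ATF4, 16 of 23 tested genes were higher, 1 was lower and 6 did not pass (limma), with a median of 0.72. Equal totals gave 10 higher and 7 lower. Atf3 differed by 5.55, Atf5 by 3.63 and Cebpb by 3.62, all transcription factors of stress responses. Cebpb is also abundant in myeloid cells, whose markers rose in the same libraries. Gcn1l1, the GCN2 co-activator, fell by 1.04. Asns, asparagine synthetase and a classical ATF4 target, was looked up after its values were seen and went from 1.46 ± 0.31 (SD, n = 6) to 4.46 ± 0.60 (SD, n = 5). Atf4 itself, chosen likewise, went from 6.96 ± 0.14 (SD, n = 6) to 7.36 ± 0.16 (SD, n = 5), a difference of 0.39 that turned to -0.23 with equal totals.

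The MYC network, whose founding member is known to raise amino acid transport in activated T cells, had 5 genes higher, 3 lower and 3 not passing of 11 tested (limma), with a median of 0.12, and with equal totals 2 were higher and 6 lower. Mxi1 (2.91) and Mxd1 (2.27), both of the MXD family that opposes MYC at E-boxes, and Mycl (0.69) differed most upward. Mga fell by 1.06, Mlxip by 0.92 and Mxd4 by 0.81, each smaller or near 0 when centred on T-cell lineage genes (-0.31, -0.17 and -0.059). Myc, named after its values were seen, was 5.65 ± 0.12 (SD) over the 6 spleen libraries and 5.72 ± 0.57 (SD) over the 5 tumor libraries, and did not pass (0.08, adjusted p = 0.75).

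Among enzymes that use glutamine, branched-chain amino acids, arginine and tryptophan, 19 of 27 tested were higher, 3 were lower and 5 did not pass (limma), with a median of 0.88, and with equal totals 12 were higher and 6 lower. Arg1, the arginase that splits arginine, went from 1.41 ± 0.33 (SD, n = 6) to 10.2 ± 0.59 (SD, n = 5), a difference of 8.74. Nos2, the inducible nitric oxide synthase, differed by 5.58 and Odc1, which starts polyamine synthesis from ornithine, by 3.07. Arg1 and Nos2 are known from tumor myeloid cells, and their part in these values was not tested. Tdo2, which opens the ring of tryptophan, fell by 0.94, Bckdhb, a subunit of the branched-chain ketoacid dehydrogenase, by 0.75, and Gpt, an alanine transaminase, by 0.33. Bckdhb stood at 0.0020 and Gpt at 0.42 when centred on T-cell lineage genes.

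The 20 cytosolic aminoacyl-tRNA synthetases, which load amino acids onto tRNA, had 14 higher, 2 lower and 4 not passing (limma), with a median of 0.47. This split depended on the scaling, with 4 higher and 8 lower for equal totals and 20 higher when centred on T-cell lineage genes. Aars (alanine) differed by 1.43, Nars (asparagine) by 1.21 and Gars (glycine) by 1.05, and these 3 stayed past the threshold with equal totals (0.81, 0.60 and 0.44). Vars (valine) fell by 0.28 and Qars (glutamine) by 0.21 as deposited, but stood at 0.48 and 0.54 when centred on T-cell lineage genes.

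Over the 11 libraries, the genes whose values lay closest to those of a transporter, after each gene was centred on its own mean, were found by the root mean square difference. For Slc7a5 they were Zfp367 (0.094) and Tmem67 (0.097), and for Slc3a2 Ermn (0.084) and Aprt (0.095). For Slc38a2 they were Elmo2 (0.096) and Lrrc8b (0.099), and for Slc7a1 Ski (0.059) and Wdr7 (0.064). For Slc1a5 they were Pigx (0.055) and Tbc1d10a (0.058), for Slc38a1 Rundc1 (0.061) and Trip12 (0.071), and for Slc7a6 Gpt (0.064) and Ythdf3 (0.068). This measure takes in both the tissue difference and the spread within tissues, and their shares were not computed. Among the 7 genes, the closest to Slc7a5 was Slc38a2, in place 94 among all genes tested, and not its partner Slc3a2, in place 2777. Places of amino acid transporters outside the 7 were not looked up. Slc7a6 was the closest of the 7 to Slc38a1 (place 178) and to Slc1a5 (place 338).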

How the data were processed

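Tregs were sorted as live CD4+GITR+CD25+ cells, and ribosomal RNA was depleted before sequencing. The authors pseudoaligned reads with kallisto to mm10 (GRCm38), processed estimated counts with sleuth 0.30.0, summed them by gene symbol and deposited 14604 genes as log2(n + 1). No source used here gives the kallisto version, the annotation or any scaling of n. The methods state only an approximate read depth and not the reads of each library, so no counting interval is given. The spread between libraries alone sets the precision.

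Labels for tissue and genotype set the groups. Deposited log2 values were used without further scaling. Genes with a mean of at least 0.5 were kept (13897), and limma 3.58.1 in R 4.3.3 (lmFit, eBayes with a mean-variance trend) compared 6 spleen with 5 tumor libraries. The within-genotype, interaction and knockout comparisons came from a 4-group model. A call is a Benjamini-Hochberg adjusted p below 0.05 over all genes tested. Single values also had an exact two-sided permutation test (scipy 1.17.1). The fit was also run on simulated data with independent noise and few genes changed. Most genes differed between the tissues here, so that run says little about the calls in these libraries. No 2 libraries were identical (highest correlation 0.991).

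The 7 genes, the gene lists and the tests were chosen with earlier results of these data known, and the T-cell lineage list was first drawn up after the data had been seen. Named genes are the 7, of each list up to 3 called genes with the largest rise and 3 with the largest fall, the 2 markers highest in tumor of each marker list, and the 2 genes nearest each transporter. For any other gene the text says that it was picked with its values in view. The lists share Sesn2 and Lars. Pqlc2 and Gcn1l1 were matched through RefSeq synonyms. Positions came from GENCODE M21 and promoters from RefSeq on GRCm38.p6. Alternatives changed the scaling, pseudocount (0.1 or 5), variance model, filter (none or a mean of 2), multiple-testing rule, covariates, replicate block and libraries.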

Additional observations from a re-analysis of the deposited data

How the results depend on the processing

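Slc3a2 and Slc7a5 kept their direction and stayed past the threshold under all 26 alternatives, with differences of 1.07 to 2.44 and 0.45 to 1.80. Reversed values came from scaling. Centred on T-cell lineage genes, Slc1a5 was 0.29, Slc38a1 0.54 and Slc7a6 0.43, and with equal library totals Slc7a1 was -0.14, also -0.14 when Gm12896 was left out of the totals, an alternative chosen after seeing the data. Scaling shifts all genes of a library, and the cause of the reversals beyond that was not tested. Bonferroni correction called 3 of the 7 genes in all libraries, 1 in wild-type and 1 in knockout mice (beside 36.3%, 17.6% and 13.4% of all genes tested), and 13 of 25 other transporters. A log2 difference of at least 1 called 2, 2 and 1 of the 7 (beside 32.8%, 33.4% and 31.6%) and 12 of the others. Both rules are stricter by construction. With each library left out in turn, calls among the 7 ranged from 6 to 7 over all libraries and from 6 to 7 in wild-type mice. Without the third wild-type tumor library 6 passed over all libraries, beside 5800 of all genes higher and 4814 lower (5983 and 4988 in full). In knockout mice calls ranged from 4 to 5 while 2 tumor libraries remained. The 4 came without the second knockout spleen library, beside 4699 genes higher and 3817 lower (5024 and 4103 in full). Leaving out the first or second knockout tumor library leaves 1, with estimates from -0.58 to 1.65 and from -0.26 to 1.73. Calls among other transporters ranged from 23 to 24. Without single libraries the pairs changed by -0.68 to -0.57 (Slc7a5 minus Slc3a2), -1.47 to -1.28 (Slc7a6 minus Slc7a5) and -1.14 to -1.04 (Slc38a1 minus Slc38a2). In wild-type libraries alone the 3 pairs changed by -0.59, -1.47 and -1.14 (exact permutation p = 0.1, the smallest that 3 against 3 allow) and in knockout libraries alone by -0.70, -1.21 and -1.05 (p = 0.2, the smallest possible). No source ties replicate numbers to animals, and same-numbered libraries did not deviate together (correlations of deviations between -0.13 and 0.038). With the number as a replicate block, which leaves out the third knockout spleen library for want of a partner in the pairs, the pairs changed by -0.63, -1.36 and -1.08 (exact permutation p = 0.0625, the smallest possible), Slc38a1 was -0.20 over all libraries and no longer passed (limma adjusted p = 0.10), Slc7a1 was 0.44 in knockout mice and no longer passed there (limma adjusted p = 0.082), and the other tissue calls among the 7 were kept. No genotype comparison called any of the 7 under its 24 alternatives.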
